A study of Mus musculus with 4 samples.

Results

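Ifit1, Ifit2, Ifit3, Isg15, Rsad2, Mx1, Bst2, Ifitm3, Ifi44 and Ifi27l2a are mouse genes whose products act against viruses inside the cell and whose transcription is induced by interferon. They were chosen by gene name, as 10 of the 21044 genes with a fragments-per-kilobase value (FPKM) in the deposited table, and each name matched a single gene. The choice was made with the difference between the genotypes in these libraries already known, so the values below describe that difference and do not test it. All 10 had read counts and all passed the filter on low counts.

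The study sequenced RNA of microglia taken from the corpus callosum, the large white matter tract between the hemispheres, at postnatal day 7. There were 2 libraries of Lag3cKO-Cx3 mice (cKO, genotype label ko), in which the gene of the inhibitory immune receptor Lag3 is deleted by a recombinase driven from Cx3cr1, and 2 libraries of Lag3fl/fl mice (WT, genotype label wt). Both groups carry the floxed Lag3 alleles. Whether a library holds 1 animal or a pool, whether the WT mice carried the driver, and the strain and sex are not stated in the labels. Cx3cr1 is expressed by microglia and by other cells of the myeloid lineage, so the deletion need not be limited to microglia. The question was what loss of Lag3 does to white matter microglia in early life.

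Type I interferon binds a receptor that activates the kinases Jak1 and Tyk2. A complex that holds Stat2 and Irf9 then enters the nucleus and binds a promoter element, the interferon-stimulated response element (ISRE), upstream of genes such as those described here. Interferon gamma acts mainly through another element, the gamma-activated site (GAS). Microglia respond to interferon with these genes in viral infection, in ageing and, in the developing brain, in a small set of cells at rest.

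Total counts were 16770162 and 14645187 in the cKO libraries, against 15855913 and 14973059 in the WT libraries. Lag3 was at 35.4 and 17.1 CPM (read counts scaled to a common library size) in cKO, against 386.7 and 683.0 CPM in WT, and Cx3cr1, the driver's locus, was at 3404 and 3034 CPM in cKO, against 6443 and 6554 CPM in WT. All 12 microglial markers examined had counts in each library. cKO replicate 2 stood apart from the rest, with 12787 genes detected against 14840 to 15899 in the other 3, and with a correlation of log2 CPM across genes of 0.783 to 0.802 with them, against 0.872 to 0.910 among the other 3. The transcripts Xist and Ddx3y were at 290.4 and 0 CPM in cKO replicate 2 and at 6.97 and 106.9 CPM in cKO replicate 1, against 0 CPM of Xist and 94.7 and 89.1 CPM of Ddx3y in WT, so the libraries were not matched for these sex-linked transcripts. Since 1 of the 2 cKO libraries stood apart, values without it are given beside the fold changes of the 10 genes, and not for the other gene lists.

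The promoters are shown first, because interferon signalling ends at them. Since the genes were chosen as interferon-induced, the share of them with an ISRE describes the set and is not separate evidence. RefSeq promoter windows, 250 bases before and 50 bases from the start site on, were at hand for 8 of the 10 genes, with 2 start sites for Ifit2 (build GRCm38.p6). The ISRE core was searched as GAAA, any 2 bases and GAAA, and on the other strand as TTTC, any 2 bases and TTTC, and the GAS as TTC, any 3 bases and GAA, which reads the same on both strands. An ISRE core was present for 6 of these 8 genes, against 3.99% of all 27025 genes with a window. A GAS match was present for 3 of the 8, against 9.55% of all genes. The stretches below hold the ISRE cores that lay upstream of the start site, each with 25 bases on either side, read 5′ to 3′ on the gene's own strand. Capitals mark the bases of ISRE cores.
Ifit1: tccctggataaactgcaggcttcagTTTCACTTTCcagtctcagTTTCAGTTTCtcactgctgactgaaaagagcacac
Ifit3: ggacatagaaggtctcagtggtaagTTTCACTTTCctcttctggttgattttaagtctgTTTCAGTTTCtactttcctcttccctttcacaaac
Isg15: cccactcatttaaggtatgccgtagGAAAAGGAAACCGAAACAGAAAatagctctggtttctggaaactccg
Rsad2: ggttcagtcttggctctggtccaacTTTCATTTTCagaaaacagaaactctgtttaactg
Bst2: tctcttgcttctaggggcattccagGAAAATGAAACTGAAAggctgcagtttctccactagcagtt
These stretches lie at chr19:34640760-34640838 (plus strand) for Ifit1, chr19:34583348-34583441 (plus strand) for Ifit3, chr4:156200850-156200921 (minus strand) for Isg15, chr12:26456538-26456597 (minus strand) for Rsad2 and chr8:71537562-71537627 (minus strand) for Bst2.

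Ifit1 and Ifit3 each held 2 separate cores in reverse orientation with the same letters, TTTCACTTTC further from the start site and TTTCAGTTTC nearer to it. In Isg15 the cores numbered 3 and overlapped as a run from position -78 to -57. In Bst2 the cores numbered 2, from -130 to -115, and the first overlapped a GAS match from -136 to -128. Rsad2 held 1 core, from -120 to -111. The 2 cores of Ifitm3 lay downstream of its RefSeq start site, from position 3 to 12 and from 20 to 29, with a GAS match from 14 to 22 that overlapped the core further downstream. Ifit2 had a GAS match from -241 to -233 of its upstream start site and no ISRE core, and Ifi44 had neither, which says only that these letters are not in these windows. Windows with 2 or more cores made up 0.225% of all 32851 windows.

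**Figure D1:**
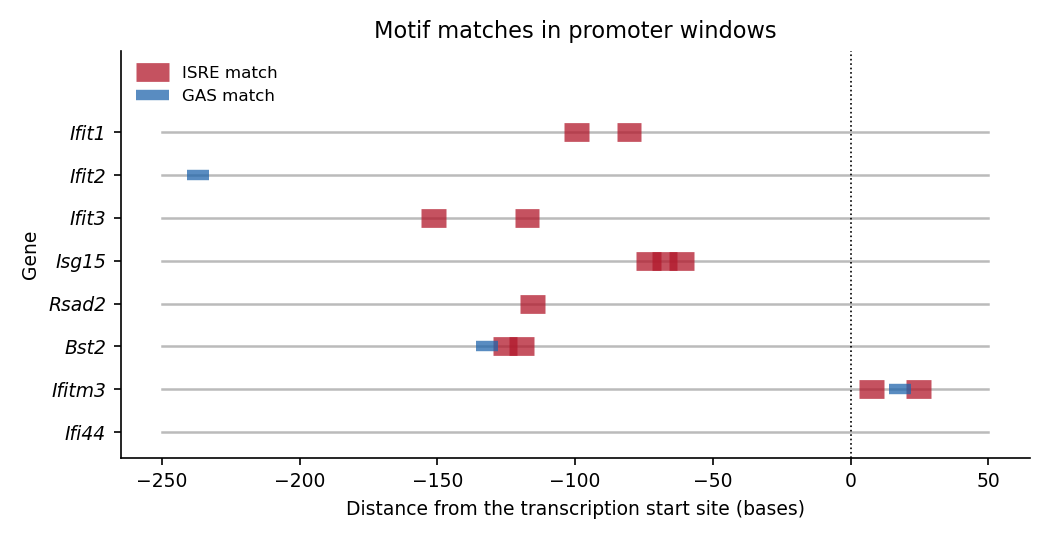
Positions of ISRE and GAS matches in the promoter windows of 8 genes, with the distance from the RefSeq transcription start site in bases on the x axis and the upstream of the Ifit2 start sites. ISRE cores (red) sit between -156 and -57 for Ifit1, Ifit3, Isg15, Rsad2 and Bst2, and just past the start site for Ifitm3.

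The Ifit genes encode proteins with tetratricopeptide repeats. IFIT1 binds viral RNA that lacks the cap methylation of host mRNA, and IFIT2 and IFIT3 act with it in complexes. The 3 genes lie near each other on chromosome 19 in GRCm38, Ifit2 from 34550694 to 34576419, Ifit3 from 34583531 to 34588731 and Ifit1 from 34640871 to 34650009, all on the plus strand. Ifit1 had 12.1 and 47.8 CPM in cKO replicates 1 and 2, against 6.57 and 0 CPM in WT replicates 1 and 2. Ifit2 had 68.0 and 376.0 CPM in cKO, against 79.6 and 15.4 CPM in WT. Ifit3 had 28.4 and 211.4 CPM in cKO, against 18.6 and 6.83 CPM in WT. For all 3 genes cKO replicate 2 was the highest library and WT replicate 2 the lowest. The groups overlapped for Ifit2, where cKO replicate 1 lay below WT replicate 1, and did not overlap for Ifit1 and Ifit3, where cKO replicate 1 lay closer to WT replicate 1 than to cKO replicate 2. WT replicate 1 held 103 reads of Ifit1, whereas WT replicate 2 held none at a similar depth, so that Ifit1 was at least 32.1-fold higher in WT replicate 1 against a floor of 3 counts for WT replicate 2.

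The edgeR log2 fold changes of cKO over WT were 3.18 ± 2.01 (SE) for Ifit1, 2.22 ± 1.12 for Ifit2 and 3.24 ± 1.11 for Ifit3. Without cKO replicate 2 they were 1.87, 0.52 and 1.16. Ifit3 shares 97.8% identity over 1700 bases of transcript with its neighbour Ifit3b, and reads from either gene could be counted to the other. Ifit3b had 89 and 827 counts in cKO, against 75 and 49 counts in WT, so its libraries had the same order as those of Ifit3. Ifit1bl1, a paralog of Ifit1, had no count in either cKO library, against 107 and 10 counts in WT.

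Isg15 encodes a ubiquitin-like protein that is attached to other proteins during the interferon response (chromosome 4, 156199424 to 156200818, minus strand). It had 4 and 40 counts in the cKO libraries, against 12 and 2 counts in the WT libraries. The exact 95% Poisson intervals of these counts were 1.09 to 10.2 and 28.6 to 54.5 in cKO, against 6.20 to 20.96 and 0.242 to 7.22 in WT, and cover counting error only. cKO replicate 2 was thus above the other 3 libraries beyond counting error, and cKO replicate 1 was not distinguishable at this depth from either WT library. The log2 fold change was 1.67 ± 1.88 (SE), and without cKO replicate 2 it was -0.90, the only change of direction among the 10 genes when a library was left out. Isg15 shares 95.2% identity over 482 bases with another annotated transcript, AC151275.1, and how the authors counted reads that match both is not stated.

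Rsad2 encodes viperin, an enzyme that makes a nucleotide analog which ends viral RNA chains. Mx1 encodes a dynamin-like GTPase that can block influenza virus. Rsad2 (chromosome 12, 26442746 to 26456452, minus strand) had 10.1 and 83.7 CPM in cKO, against 9.50 and 2.32 CPM in WT. Mx1 (chromosome 16, 97447035 to 97462907, minus strand) had 32.3 and 19.6 CPM in cKO, against 19.7 and 4.91 CPM in WT. For Rsad2 cKO replicate 1 stood at 1.06 times WT replicate 1, and the cKO libraries differed 8.31-fold. Mx1 was the only gene of the 10 with its highest value in cKO replicate 1, and its value in cKO replicate 2 nearly equalled that in WT replicate 1, so that with TMM scaling the groups overlapped narrowly and with RLE or total-count scaling they did not. The log2 fold changes were 2.98 ± 1.26 (SE) for Rsad2 and 1.08 ± 0.78 for Mx1, and 0.77 and 1.39 without cKO replicate 2. For Mx1 the fold change rested more on the WT libraries, with 0.39 without WT replicate 2 and 2.39 without WT replicate 1. Mx1 shares 95.3% identity over 843 bases with Mx2, its neighbour in the family, which had 73 and 151 counts in cKO, against 51 and 19 counts in WT.

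Bst2 and Ifitm3 encode membrane proteins. Bst2 (tetherin) holds budding virus particles at the cell surface, and Ifitm3 hinders fusion of viruses with endosomal membranes. Bst2 (chromosome 8, 71534255 to 71537456, minus strand) had 258.5 and 289.4 CPM in cKO, against 172.0 and 91.1 CPM in WT. Ifitm3 (chromosome 7, 141009586 to 141010770, minus strand) had 35.6 and 124.9 CPM in cKO, against 28.0 and 5.26 CPM in WT. Neither gene's groups overlapped. Bst2 was the gene least spread between the libraries, with its cKO libraries 1.12-fold apart and its WT libraries 1.89-fold apart. Ifitm3 followed the pattern of the Ifit genes, 3.51-fold apart in cKO and 5.33-fold apart in WT. The log2 fold changes were 1.06 ± 0.35 (SE) for Bst2 and 2.27 ± 1.02 for Ifitm3. Without cKO replicate 2 they were 0.97 and 1.10. That of Bst2 was 0.66 without WT replicate 2 and 1.58 without WT replicate 1, and that of Ifitm3 1.51 and 3.92.

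Ifi44 and Ifi27l2a are interferon-induced genes whose molecular roles are less well defined. Ifi44 (chromosome 3, 151730922 to 151749960, minus strand) had 176 and 190 counts in the cKO libraries and none in either WT library. These were 10.5 and 12.7 CPM in cKO, at least 58.4-fold higher on average than a floor of 3 counts per WT library. Its cKO libraries were within 1.21-fold of each other, unlike those of the Ifit genes. Its exact 0 in both WT libraries stood beside counts of at least 1 for 8 of the other 9 genes in WT replicate 2 and for all 9 in WT replicate 1. Ifi27l2a (chromosome 12, 103442167 to 103443680, minus strand) had 21.6 and 62.1 CPM in cKO, against 6.12 and 2.25 CPM in WT, and its groups did not overlap. Its log2 fold change was 3.32 ± 0.83 (SE), and 2.36 without cKO replicate 2. Apart from Ifi44, it had the largest difference between cKO replicate 1 and WT replicate 1 of the 10 genes, 3.53-fold.

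**Figure D2:**
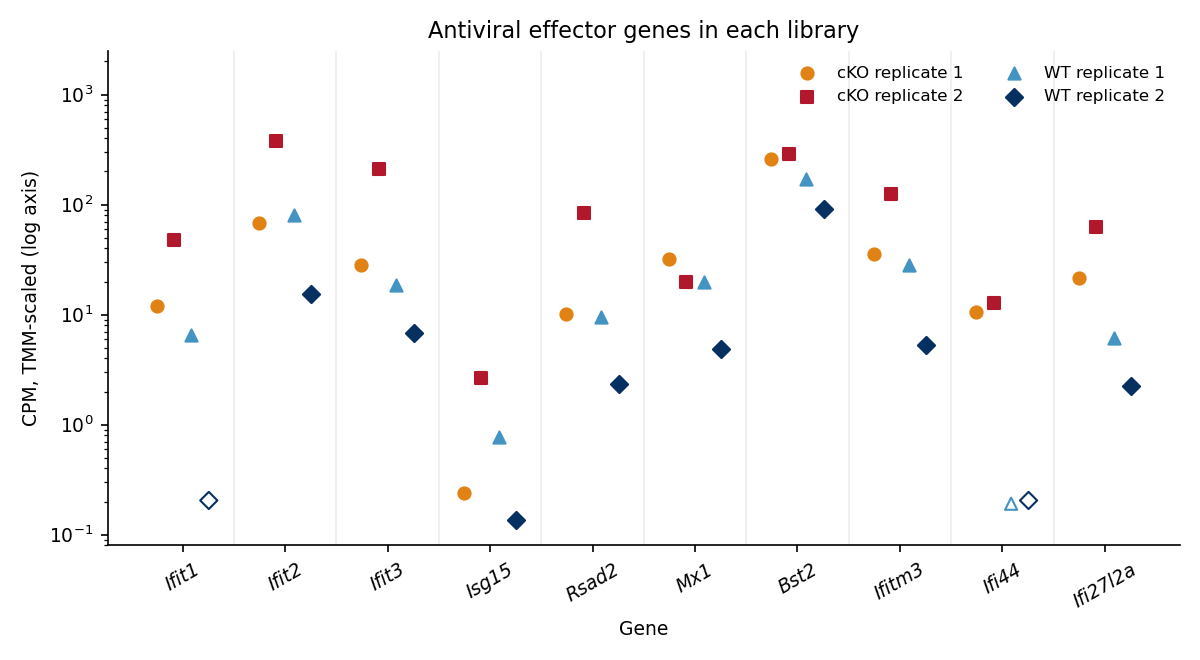
CPM of the 10 genes in each library, TMM-scaled, on a log axis, with cKO libraries left of WT libraries within each gene and 1 point per library. Open symbols stand for a count of 0 and are drawn at the level of 3 counts. cKO replicate 2 (red squares) is the highest library for 9 of the 10 genes, and WT replicate 2 (dark diamonds) is the lowest, alone or tied, for all 10. Over all genes tested, cKO replicate 2 was highest for 32.1%, and WT replicate 2 was lowest, ties left out, for 16.0%.

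Levels can be set against each other per transcript length with FPKM. In cKO the mean FPKM levels ran from 307.4 ± 29.4 for Bst2 (SD, n = 2) over 120.6 ± 96.2 for Ifitm3, 92.0 ± 64.0 for Ifi27l2a, 70.2 ± 76.2 for Ifit3 and 57.7 ± 57.1 for Ifit2 to 11.5 ± 9.81 for Ifit1, 11.0 ± 12.3 for Rsad2, 7.19 ± 2.39 for Mx1, 1.96 ± 2.33 for Isg15 and 1.91 ± 0.29 for Ifi44. In WT they were 143.5 ± 63.4 for Bst2 (SD, n = 2), 24.2 ± 23.5 for Ifitm3, 11.9 ± 11.5 for Ifit2, 8.92 ± 5.88 for Ifi27l2a, 7.17 ± 4.73 for Ifit3, 3.33 ± 2.85 for Mx1, 1.35 ± 1.16 for Rsad2, 1.22 ± 1.73 for Ifit1 and 0.589 ± 0.583 for Isg15, with Ifi44 listed at 0. Neighbours in this order had separate ranges for 2 of 9 pairs in cKO, Bst2 over Ifitm3 and Mx1 over Isg15, and for 2 of 9 pairs in WT, Bst2 over Ifitm3 and Isg15 over Ifi44. The other neighbours did not differ beyond their spread. Of the summed CPM of the 10 genes, the largest share was that of Bst2 in cKO replicate 1 (54.2%) and in WT replicates 1 and 2 (50.5% and 71.1%), whereas in cKO replicate 2 it was that of Ifit2 (30.6%). The summed CPM itself was 477.4 and 1230.2 in cKO, against 340.8 and 128.2 in WT. In bulk RNA, fewer cells of a type and less RNA per cell cannot be told apart, and a few strongly responding cells cannot be told from a weak response in all.

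The spread inside each genotype was then set against the difference between the genotypes, as differences of log2 CPM (prior count 2). The difference between group means had a median of 2.52 over the 10 genes, against -0.09 over all 13086 genes tested. cKO replicate 2 exceeded cKO replicate 1 by a median of 1.89, with 9 genes higher, against 44.9% of all genes. Between the WT libraries, replicate 1 was the higher by a median of 1.86, with 9 genes higher and Ifi44 at 0 in both, against 49.1% of all genes. The median difference of cKO replicate 1 over WT replicate 1 was 0.60, with Ifit2 and Isg15 lower. The median of cKO replicate 1 over WT replicate 2 was 2.41. That of cKO replicate 2 was 2.54 over WT replicate 1 and 4.65 over WT replicate 2. Of the pairs across genotypes, only that of cKO replicate 1 and WT replicate 1 thus had a smaller median than the pairs inside a genotype. For 7 of the 10 genes the cKO libraries differed by more than that pair did, against 65.7% of all genes tested.

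The difference between group means was larger than both differences inside a genotype for Bst2, Ifitm3, Ifi44 and Ifi27l2a, 4 of the 10 genes, where 21.7% of all genes tested met the same condition. For Ifitm3 the margin was narrow, 2.44 between the genotypes and 2.39 between the WT libraries. For Ifi27l2a it was 3.25 between the genotypes, against 1.52 inside cKO and 1.39 inside WT. For Bst2 it was 1.13 between the genotypes, against 0.16 inside cKO and 0.92 inside WT. In Ifit3 and Rsad2 the cKO libraries differed by more than the genotypes did, with 2.89 against 2.77 and 3.04 against 2.59. In Ifit1 and Mx1 the WT libraries did so, with 5.70 against 4.70 and 1.98 against 1.34, and in Ifit2 and Isg15 both pairs did. The values of Ifit1 and Ifi44 depend on the prior count, since they rest on counts of 0.

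**Figure D3:**
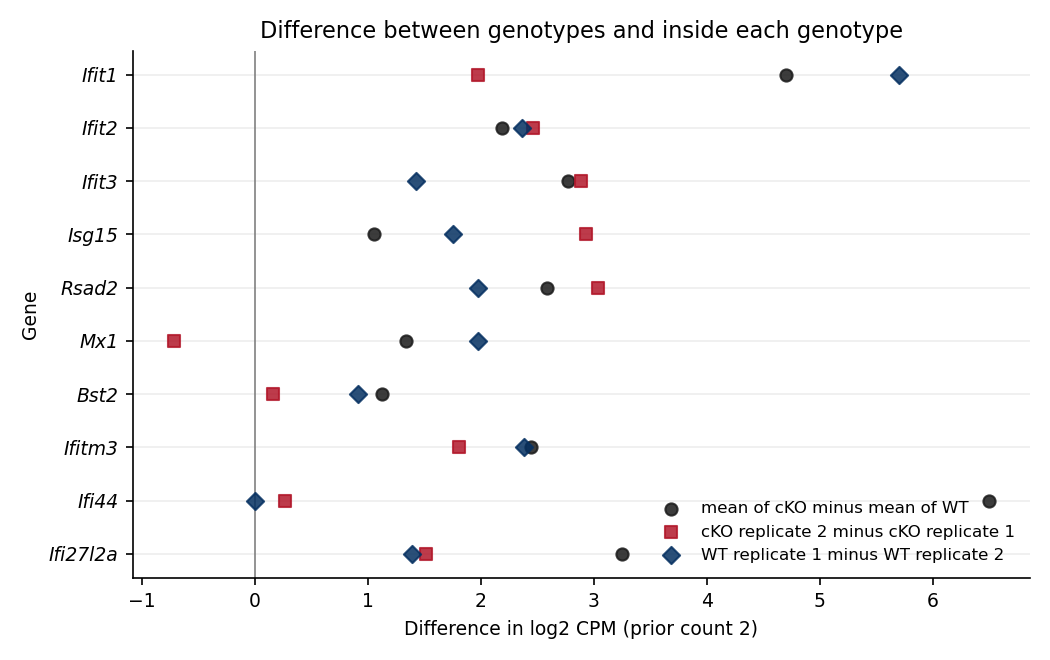
Differences in log2 CPM (prior count 2) for each of the 10 genes, 1 row per gene, for the cKO mean minus the WT mean (black), for cKO replicate 2 minus cKO replicate 1 (red) and for WT replicate 1 minus WT replicate 2 (blue). The black point lies furthest to the right for Bst2, Ifitm3, Ifi44 and Ifi27l2a, and the red point lies left of 0 for Mx1.

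Both cKO libraries lay above both WT libraries for 7 of the 10 genes and below them for none, where 15.8% of all genes tested lay above and 20.0% below. cKO replicate 1 alone lay above both WT libraries for 8 genes, all but Ifit2 and Isg15, where 36.0% of all genes did so. cKO replicate 2 alone did so for 9 genes, all but Mx1, where 36.7% of all genes did. With edgeR's quasi-likelihood test no gene in the whole table was called at an adjusted p under 0.05 (0% of 13086 genes), so none of the 10 was. Lag3, the deleted gene, was not called either, at a log2 fold change of -4.35 ± 0.52 (SE). The lowest adjusted p of the table was 0.9997, and 608 genes had an unadjusted p under 0.05. DESeq2 called 52 genes (0.282%), 23 higher and 29 lower in cKO, and Ifi44, Ifit3 and Ifi27l2a were among those higher. Since the genes were chosen with this comparison known, nothing is read from these counts. An exact permutation test of a single value with 2 against 2 libraries cannot give a two-sided p below 0.333.

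The median edgeR log2 fold change of the 10 genes was 2.63, against -0.03 over all genes tested. Holding Ifi44 at its lower bound could not move this median, since Ifi44 stays the largest value there. Without cKO replicate 2 the median was 1.13 and without WT replicate 1 it was 4.02. Without cKO replicate 1 it was 3.40, and in that fit, where the lone cKO library is taken to vary like the WT libraries, edgeR called 748 genes (5.72%), among them Ifit3, Ifi44 and Ifi27l2a. Fold changes were above 0 for 9 of the 10 genes whichever library was left out. Those of Ifi44 ranged from 10.36 to 10.58 on the fitted scale, which depends on the prior count, and those of Ifit1 from 1.87 to 11.85, the higher value without WT replicate 1, where Ifit1 is at 0 in the WT library left. Leaving out WT replicate 1 gave the highest value for 9 of the 10 genes, all but Ifi44, with 3.84 for Ifit2, 3.32 for Isg15 and 4.32 for Rsad2.

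**Figure D4:**
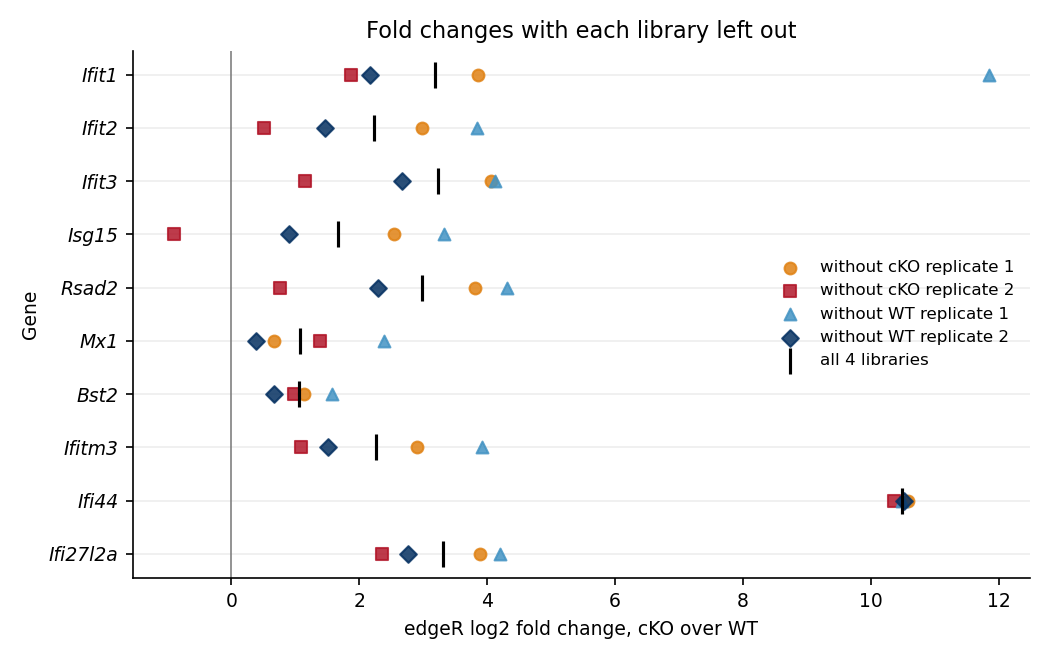
edgeR log2 fold changes of cKO over WT for each gene with all 4 libraries (black ticks) and with each library left out (coloured symbols). Leaving out cKO replicate 2 (red squares) gives the lowest value for 8 of the 10 genes, all but Mx1 and Bst2, and for Isg15 that value is -0.90, left of 0.

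The authors' deposited tables each compare 1 cKO with 1 WT library, so each library stands in 2 of the 4. The authors' deposited table of cKO replicate 1 against WT replicate 1 called 2 of the 10 genes higher, Ifi44 and Ifi27l2a, and Isg15 lower (20.3% of its genes were called higher). The authors' deposited table of cKO replicate 1 against WT replicate 2 called 9 higher, all but Isg15 (17.2% of its genes). The authors' deposited table of cKO replicate 2 against WT replicate 1 called 8 higher, all but Bst2 and Mx1 (18.1% of its genes), and that of cKO replicate 2 against WT replicate 2, also the authors' deposited table, called all 10 (17.1% of its genes). For Ifi27l2a the log2 fold changes in the authors' deposited tables were 1.84 and 3.30 for cKO replicate 1 against WT replicates 1 and 2, and 3.39 and 4.85 for cKO replicate 2.

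Upstream of the effectors, of 10 interferon genes looked up, Ifna5 had counts, and no FPKM or count was listed for the other 9. Ifna5 had 0 and 40 counts in cKO, against 0 and 0 in WT, too few libraries with reads for the edgeR test. Of 9 interferon receptors and their kinases tested, 2 had a fold change above 0, and the median of the 9 was -0.28. Of all genes tested 43.7% had a higher mean log2 CPM in cKO. Ifngr1, a chain of the interferon gamma receptor, had 1569.5 and 1569.7 CPM in cKO, against 1025 and 1466 CPM in WT. Ifnlr1, a chain of the lambda interferon receptor, had no count in cKO, against 0.765 and 1.02 CPM in WT. Jak1 was at 254.4 and 109.5 CPM in cKO, against 232.7 and 287.0 CPM in WT, and Ifngr2 at 218.4 and 129.1 CPM in cKO, against 230.2 and 206.5 CPM in WT, in each case lowest in cKO replicate 2, where the effectors were highest.

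Among 8 transcription factors of the response, Stat2, Irf9 and Irf7 were higher in each cKO library than in either WT library, and Irf3, Irf5 and Irf8 lower, with none called by edgeR. Over all genes tested these shares were 15.8% higher and 20.0% lower. Irf7, itself interferon-induced, had 12.4 and 33.7 CPM in cKO, against 11.8 and 2.12 CPM in WT, the same order of libraries as Rsad2. Irf9 had 201.0 and 230.7 CPM in cKO, against 169.8 and 96.4 CPM in WT, and Stat2 had 108.5 and 99.2 CPM in cKO, against 80.0 and 51.7 CPM in WT. Irf5 and Irf8 are named after their values were seen. Irf3 was at 41.8 and 27.1 CPM in cKO, against 49.1 and 53.2 CPM in WT.

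The machinery that attaches Isg15 to proteins and removes it was far better covered than Isg15 itself. All 5 of its genes had a fold change above 0, with a median log2 fold change of 0.87, where 43.7% of all genes tested had a higher mean log2 CPM in cKO. Only 2 of the 5, Herc6 and Usp18, were higher in each cKO library than in either WT library (15.8% of all genes tested). The median difference of cKO replicate 1 over WT replicate 1 was -0.03. Herc6, the main ligase in mice, had 54.5 and 131.1 CPM in cKO, against 42.6 and 13.04 CPM in WT. Usp18, which removes Isg15 and damps the interferon receptor, had 14.1 and 57.2 CPM in cKO, against 13.01 and 1.09 CPM in WT. Ube2l6, the conjugating enzyme, had 59.8 and 133.7 CPM in cKO, against 70.5 and 35.6 CPM in WT, and Trim25 had 121.0 and 200.1 CPM in cKO, against 123.7 and 53.2 CPM in WT. In all 4 of these genes cKO replicate 1 lay closer to WT replicate 1 than to cKO replicate 2, as in Rsad2. Of 5 feedback inhibitors, Usp18 and Socs1 were higher in each cKO library than in either WT library (15.8% of all genes tested), Socs1 with 6.85 and 6.67 CPM in cKO, against 2.997 and 2.25 CPM in WT.

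Of the 12 paralogs of the 10 genes, 6 were tested, and 3 of these were higher in each cKO library than in either WT library (15.8% of all genes tested), Ifit3b, Mx2 and Ifitm6, and 1 was lower (20.0% of all genes), Ifit1bl1. The fold change was above 0 for 3 of the 6. Ifitm6 was measured with 2.14 and 1.93 CPM in cKO, against 0.255 and 0.819 CPM in WT. Of 40 other interferon-induced genes 38 were tested, all had a fold change above 0 and 29 were higher in each cKO library than in either WT library, with a median log2 fold change of 1.44. Of all genes tested 43.7% had a higher mean log2 CPM in cKO, and 15.8% were higher in each cKO library than in either WT library. Iigp1, a GTPase that attacks parasite vacuoles, had 12.9 and 26.9 CPM in cKO, against 1.53 and 1.16 CPM in WT, and Ifi35 had 72.8 and 143.3 CPM in cKO, against 42.3 and 33.2 CPM in WT. Ifih1, a sensor of viral RNA, had 113.3 and 136.2 CPM in cKO, against 51.5 and 30.03 CPM in WT, and Trim30a had 208.0 and 308.4 CPM in cKO, against 148.4 and 87.6 CPM in WT. Over this list cKO replicate 2 exceeded cKO replicate 1 by a median log2 difference of 1.08 and WT replicate 1 exceeded WT replicate 2 by 1.12, against 0.36 for cKO replicate 1 over WT replicate 1. None of these genes was called by edgeR.

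Genes outside the set were ranked by how near their profile over the 4 libraries was to the mean profile of the 10 genes, with log2 CPM centred on each gene's mean and the Euclidean distance as the measure. The mean profile was 0.58 and 2.21 in the cKO libraries, against -0.40 and -2.39 in the WT libraries. Of 9417 candidates at a mean of at least 5 CPM, the nearest were Ifi211, Zc3hav1l, Oas1a, Zfp654, Gm44694, Tmc4, Gdf15, Ifi204, Cmpk2 and Kif9, at distances of 0.371 to 0.739. Ifi211 had 6.91 and 27.6 CPM in cKO, against 3.06 and 0.751 CPM in WT, and Cmpk2, the neighbour gene of Rsad2, had 13.8 and 80.6 CPM in cKO, against 7.97 and 2.53 CPM in WT. Among the 10 genes themselves the distance was smallest for Ifitm3 (0.469) and Ifi27l2a (0.627) and largest for Ifit1 (3.25) and Ifi44 (4.08), so the set is not uniform, and 7636 candidates lay nearer to the mean profile than Ifi44 did. With 4 libraries such a likeness is a description.

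**Figure D5:**
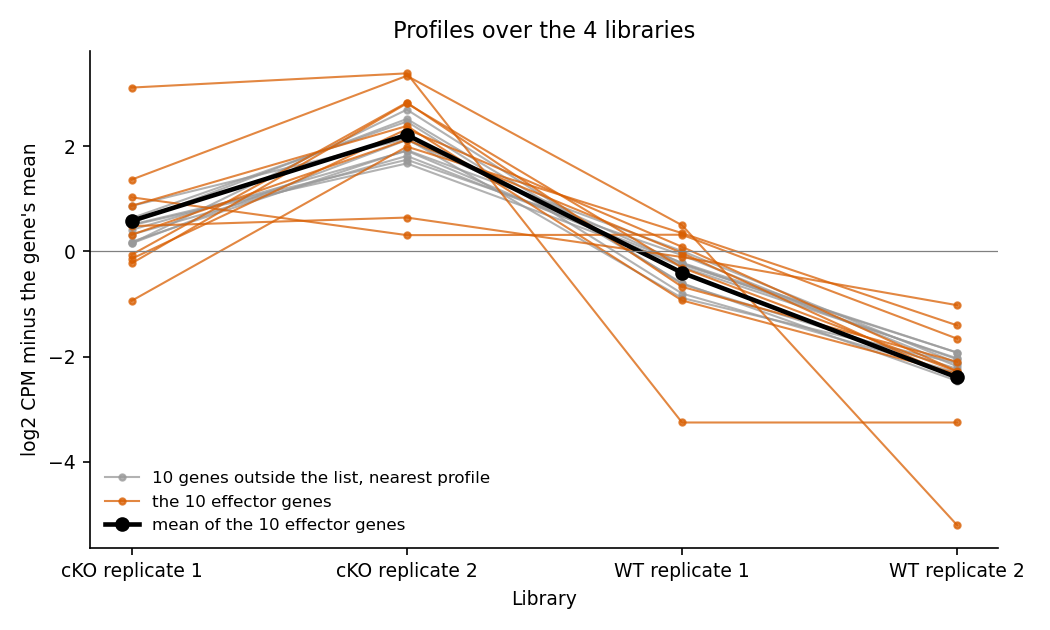
log2 CPM minus the gene's mean in each library for the 10 genes (orange), their mean (black, 2.21 in cKO replicate 2 and -2.39 in WT replicate 2) and the 10 nearest genes outside the set (grey). Lines only join the values of a gene, and Ifit1 reaches the lowest value, -5.20 in WT replicate 2.

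Of the 11 lists of markers of other cells, some had the same order of libraries as these genes and others did not. The 12 neutrophil markers, of which 11 had counts in some library, summed to 18.3 and 125.0 CPM in cKO replicates 1 and 2, against 32.6 and 12.7 CPM in WT. Mmp8, Elane and Mpo among them had no count in either cKO library. The 6 monocyte markers summed to 30.7 and 84.7 CPM in cKO, against 35.5 and 22.8 CPM in WT, and the 11 astrocyte markers to 239.3 and 525.1 CPM in cKO, against 225.8 and 183.8 CPM in WT. cKO replicate 1 was below WT replicate 1 in the neutrophil and monocyte sums and above it in the astrocyte sum. In each of these sums cKO replicate 2 was highest and WT replicate 2 lowest, as in 9 of the 10 effector genes, and the part of such cells in the effector counts was not tested. Oligodendrocyte markers summed to 195.0 and 133.4 CPM in cKO, against 116.9 and 114.6 CPM in WT, and those of oligodendrocyte precursors to 36.7 and 17.5 CPM in cKO, against 23.6 and 26.7 CPM in WT. Neuronal markers summed to 11.9 and 9.53 CPM in cKO, against 8.80 and 16.7 CPM in WT, and endothelial markers to 21.9 and 22.5 CPM in cKO, against 16.4 and 16.9 CPM in WT. The endothelial markers did not move together between the cKO libraries. Pecam1 and Cdh5 were at 10.5 and 0.715 CPM in cKO replicate 1 and at 21.6 and 0.933 CPM in replicate 2. Cldn5, Flt1, Esam and Kdr were at 3.93, 2.80, 3.63 and 0.357 CPM in cKO replicate 1 and had no count in replicate 2. In the oligodendrocyte, precursor and neuronal sums cKO replicate 2 was thus below cKO replicate 1. Markers of border-associated macrophages summed to 525.8 and 545.5 CPM in cKO, against 505.5 and 552.2 CPM in WT. B cell markers summed to 105.8 and 117.3 CPM in cKO, against 91.3 and 98.2 CPM in WT, and T and NK cell markers to 0.536 and 1.00 CPM in cKO, against 1.53 and 0.410 CPM in WT. Of 5 markers of plasmacytoid dendritic cells, which also express Bst2, the 2 with counts, Ccr9 and Cox6a2, summed to 3.81 and 0.800 CPM in cKO, against 2.42 and 1.71 CPM in WT. No FPKM or count was listed for Klk1, Ly6d and Spib. Summed microglial markers were 26138 and 25385 CPM in cKO, against 25455 and 29344 CPM in WT.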

How the data were processed

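RNA of corpus callosum microglia was sequenced in 2 cKO and 2 WT libraries. The deposited tables give read counts per gene, values that the authors normalized to library size (a signal in which a count of 0 is replaced), their fold change as a ratio and as log2, and p-values for each cKO and WT pair, per the file headers, and the authors' FPKM for all 4 libraries. The build mm9 and the tools HTSeq 0.6.0, TopHat2 2.0.12 and Bowtie2 2.2.3 are named, with no role, per the submitters' processing notes, whereas the gene positions in the files match GRCm38 (GENCODE M21) for 92.1% of 21008 genes and for all 10 effectors. Positions are given as in the files. Strand settings and the handling of reads that match several genes are not given in the sources used here.

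The counts of each library were joined over its tables, which held the same count for every shared gene, giving 18459 genes. A gene missing from a library's tables had its count recovered from FPKM (4315 of 73836 values, all whole within 1e-06 and at most 4, none of an effector). The main test was edgeR 4.0.16's quasi-likelihood F test (R 4.3.3) with TMM scaling, edgeR's filter on low counts and Benjamini-Hochberg adjustment over 13086 genes, at an adjusted p under 0.05. CPM are TMM-scaled, and differences of log2 CPM use a prior count of 2. SE is the log2 fold change divided by the square root of F. Alternatives were RLE and total-count scaling, no filter, at least 10 counts in at least 2 libraries, DESeq2 1.42.0, limma 3.58.1 on log2(FPKM + 1) and log2(FPKM + 0.1), a replicate block, and each library left out. Fits were tested on simulated counts with the same spread beyond counting error for every gene. This does not show how they perform at the spread of these libraries. Near-identical transcripts were sought with BLAST+ 2.17.0 (at least 95% identity over at least 100 bases).

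The genes and all lists were chosen with earlier results of these data known. Named besides the 10 genes are Lag3 and Cx3cr1, up to 4 genes per pathway list with the smallest unadjusted edgeR p, and the 10 genes with the nearest profile, with exceptions stated. Replicate numbers come from the labels, and the p-values reflect the spread between libraries, which may be technical, since nothing says that they came from separate animals. The values of 1 gene of the pathway lists are not reported here.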

Additional observations from a re-analysis of the deposited data

How the results depend on the processing

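With edgeR 0 of 13086 genes were called at an adjusted p under 0.05 and 608 had an unadjusted p under 0.05. With DESeq2 it was 52 genes, and the count was 0 to 748 when each library was left out, with 748 called without cKO replicate 1. The other alternatives called 0 genes, with 252 to 732 at an unadjusted p under 0.05. The median log2 fold change of the 10 genes was 2.63, with 2.00 to 2.68 under the 8 alternatives that kept all libraries. It was 1.13 to 4.02 when each library was left out, 1.13 without cKO replicate 2 and 4.02 without WT replicate 1. Both cKO libraries lay above both WT libraries for 7 to 8 genes under the alternatives with all libraries that give levels, and the cKO libraries left lay above the WT libraries left for 7 to 10 when each was left out. The difference between genotypes exceeded both differences inside a genotype for 4 to 5 genes. Of 120 fold changes of single genes under the 12 alternatives, 113 kept direction and side of the threshold and 6 were called in addition, those of Ifit3, Ifi44 and Ifi27l2a under DESeq2 and without cKO replicate 1. The fold change of Isg15 alone turned, to -0.90 without cKO replicate 2, and the cause was not tested, with a range of -0.90 to 3.32 over the libraries left out. With the replicate number as a block 0 genes were called and the median was 2.51. The labels do not say that a number marks a shared origin, and deviations of same-numbered libraries correlated at -0.02. Low counts limit Isg15 most, with 2 to 40 counts per library. With 2 libraries per genotype, 1 of which stood apart, the precision of every fold change is low.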
